A study of Mus musculus with 24 samples.

Results

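The endothelin and nitric oxide system of the cortical collecting duct (CCD) was followed here through 9 genes: the endothelin ligands Edn1, Edn2 and Edn3, the receptors Ednra and Ednrb, the converting enzyme Ece1, and the nitric oxide synthases Nos1, Nos2 and Nos3. They were chosen by symbol from the 55416 genes of the authors' deposited table, by a rule that used no values, and each symbol had 1 row. Earlier results of these data were known when the symbols were chosen. Of the 9, 4 had a mean of at least 1 TPM (a level scaled for gene length and library size), as did 15013 genes of the table. Edn3, Ece1 and Ednrb were the abundant members, at means of 103, 43.7 and 27.4 TPM, while the other ligands, the type A receptor and all 3 synthases stayed at a mean of 1.70 TPM or less.

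Each library held the polyA RNA of 1 CCD microdissected from the kidney of a male C57BL/6 mouse, 10 weeks old. The wild-type group (WT) was 4 mice and the mutant group (MUT) 4 mice with Thr551Ala/Ser552Ala beta-catenin, a change of threonine and serine to alanine, per the labels' protocols (in the table's own legend the serine change stands alone). From each mouse 3 tubules were sequenced, 24 libraries in all, and the mouse is the replicate throughout. The treatment field names a vehicle for every mouse, while the treatment protocol speaks of groups left without treatment, so no treatment was compared. The labels do not say whether the change is present in every cell of the animal or whether the groups were littermates. TPM keeps no sequencing depth, so the depth is unknown and no detection limit can be given. A library listed 23580 to 32480 genes above 0 TPM. The 7 principal cell markers summed to 22210 TPM or more and the 7 intercalated cell markers to 3845 TPM or more in every library. The tubules thus carried transcripts of both cell types. Markers of neighbouring segments and blood were uneven: 11 libraries, 8 of WT and 3 of MUT mice, had summed markers of erythrocytes, of the proximal tubule or of the thick limb above 5 times the median library. That median was 5.04 TPM for erythrocytes, 124 TPM for the proximal tubule and 23.35 TPM for the thick limb. Markers of the distal convoluted and connecting tubule summed to 111 to 469 TPM per library, with Calb1 alone at a mean of 305 TPM. The part of those segments in the values was not tested. In bulk tubules fewer cells of a type and less RNA per cell cannot be told apart.

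Endothelins are short peptides cut from longer precursors, first by furin-type proteases and then by the converting enzyme, and they act on cells close to where they are released. The type A receptor binds endothelin 1 and endothelin 2 far more tightly than endothelin 3, while the type B receptor binds all of them about equally well. In the collecting duct the peptides act mainly through the type B receptor, which lowers sodium and water reabsorption, in part through nitric oxide made by the duct's own synthases. Nitric oxide in turn activates soluble guanylate cyclase, whose product cyclic GMP acts through protein kinase G.

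The part of each ligand mRNA that encodes the mature peptide shows how close the ligands are at the site the receptors see. The sequences are the 63 coding bases of that peptide, read 5′ to 3′ from GENCODE M21 transcripts (build GRCm38) of genes on chromosomes 13, 4 and 2, all on the + strand. Capitals mark the 18 bases that are not the same in all 3 ligands.
Edn1: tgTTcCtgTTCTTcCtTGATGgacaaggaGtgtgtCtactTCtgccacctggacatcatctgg
Edn2: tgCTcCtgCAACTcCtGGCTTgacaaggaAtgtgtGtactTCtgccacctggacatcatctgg
Edn3: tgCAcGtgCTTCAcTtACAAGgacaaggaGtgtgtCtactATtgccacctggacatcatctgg
Of the 18 capitals 14 lie in the first 21 bases, and the last bases are shared by all 3 ligands. Edn1 and Edn2 had 53 of the 63 bases in common, Edn1 and Edn3 had 50, and Edn2 and Edn3 had 48, so the ligand abundant in these tubules is the one whose peptide code departs most from the others.

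Edn3 was the ligand transcript of the CCD. Its level was 103 ± 4.55 TPM (SD over 8 mice of both genotypes), and over the 24 tubules it ran from 85.5 TPM through a median of 103 to 120 TPM. Every tubule thus lay within a 1.41-fold range, and no tubule fell near the level of the other ligands. Edn1, which encodes the endothelin best known as a vasoconstrictor, was at 1.70 ± 0.905 TPM, with tubules from 0.54 through a median of 1.31 to 8.12 TPM. Edn2 was at 0.105 ± 0.0839 TPM and was listed at 0 in 7 of 24 tubules. Edn3 made up 96.5% to 98.9% of the summed TPM of the 3 ligands in each of the 8 mice. The ratio of Edn3 to Edn1 ran from 27.7 to 95.4 among mice, with a median of 77.5.

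Ece1, the membrane protease that cuts the inactive precursor to the active peptide, was the second most abundant member at 43.7 ± 6.35 TPM (SD, n = 8 mice). Its tubules ran from 27.0 through a median of 42.3 to 77.4 TPM, a 2.87-fold range. Other genes of endothelin processing and breakdown were read from a list of 10. Furin, the protease of the first cut, was at 47.1 ± 10.3 TPM, and Mme, which encodes neprilysin, a protease that degrades endothelins, was at 99.3 ± 2.72 TPM. Pcsk7, another furin-type protease, was at 36.2 ± 1.92 TPM. Ece2, a relative of Ece1, was at 0.104 ± 0.0567 TPM, and 6 of the 10 listed genes had a mean under 1 TPM.

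Among the receptors the type B gene prevailed. Ednrb was at 27.4 ± 2.35 TPM (SD, n = 8 mice), with tubules from 17.8 through a median of 27.8 to 33.8 TPM. Ednra was at 0.384 ± 0.174 TPM and below 1 TPM in every one of the 24 tubules, the highest at 0.90 TPM. The gene 4933431K23Rik overlaps it and was at 0.444 TPM, so reads of the pair may be mixed. The ratio of Ednrb to Ednra ran from 34.3 to 248 among mice, with a median of 74.3, and the upper end belongs to a mouse whose Ednra was only 0.12 TPM. Mural cells, the vascular cells in which Ednra is known to be high, left few transcripts: 4 of 8 mural markers had a mean under 1 TPM, and their sum ran from 5.82 to 24.9 TPM per library. Ednrb is also known from endothelial cells, and endothelial markers were present, summing to 85.9 to 427 TPM per library. Over the 24 tubules Pearson's r of Ednrb with that sum was 0.46, and 0.53 after each tubule was centred on its mouse. Other marker sums went with Ednrb to a like degree after centring, with r of 0.53 for principal cells, 0.51 for mural cells, -0.55 for intercalated cells and -0.62 for fibroblasts. The part of any of these cells in the Ednrb level was not tested.

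The nitric oxide synthases were at or under 1 TPM on average. Nos3, the endothelial type, was at 0.998 ± 0.313 TPM (SD, n = 8 mice), with tubules from 0.20 through a median of 0.99 to 2.24 TPM. Nos1, the neuronal type, which is also the main synthase of the macula densa, was at 0.169 ± 0.0737 TPM, with no tubule above 0.57 TPM. Nos2, the inducible type of activated macrophages, was at 0.0725 ± 0.0447 TPM and was listed at 0 in 7 of 24 tubules. Nos3 made up 72.0% to 88.6% of the summed synthase TPM in each mouse. Nos3 went with vascular markers from tubule to tubule: Pearson's r over the 24 tubules was 0.72 with the endothelial sum and 0.65 with the mural sum, and 0.64 and 0.77 after centring on mice. It was also 0.41 with the nerve and glia sum and -0.26 with the fibroblast sum, and 0.55 and -0.49 after centring. These correlations are a description, since the values share library and mouse, and the part of carried-over vessel cells in the Nos3 level was not tested. Atg9b, which overlaps Nos3 on the other strand, was at 0.411 TPM, and strand-specific counting is not given in the sources used here, so reads of the pair may be mixed.

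**Figure D1:**
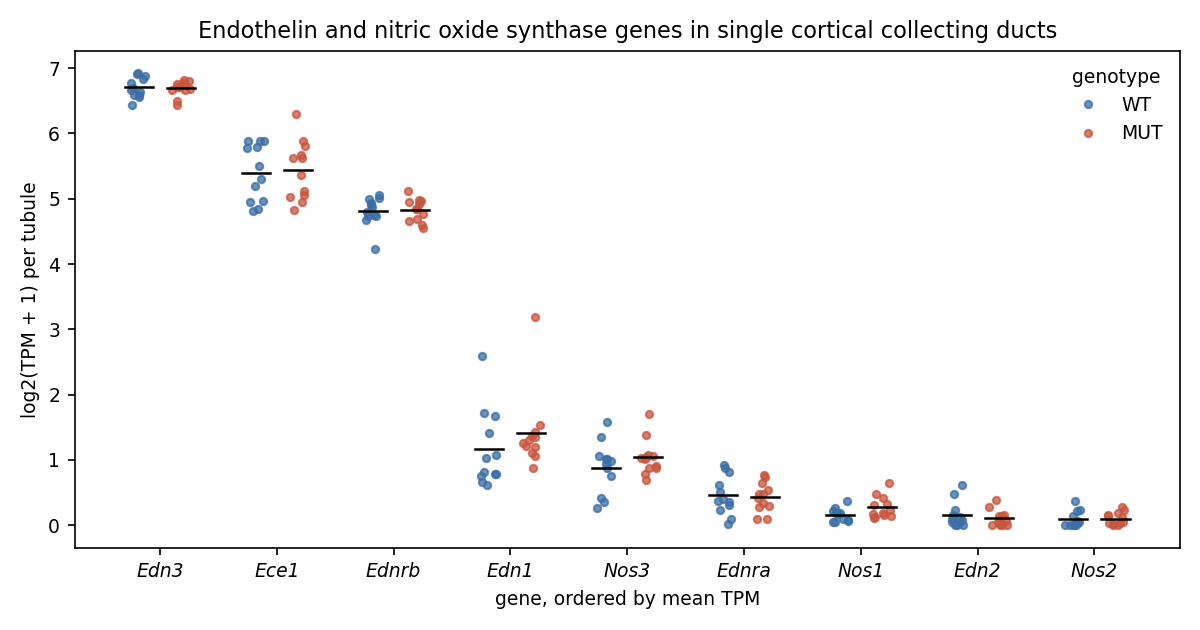
Level of each of the 9 genes in every tubule as log2(TPM + 1), with genes ordered by mean TPM, points for single tubules in blue (WT) and red (MUT), and black bars for the mean of these log values over the 12 tubules of a genotype. Edn3, Ece1 and Ednrb stand clear of the other 6 genes, and the points of both genotypes overlap for every gene.

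The order of the levels was firm at the top and not at the bottom. Edn3 was above Ece1 and Ednrb above Edn1 in 24 of 24 tubules, and Ece1 was above Ednrb in 8 of 8 mice and 21 of 24 tubules. The mouse means of these neighbours did not overlap. From Edn1 downwards each gene overlapped the next one. Edn1 was above Nos3 in 6 of 8 mice, Nos3 above Ednra in 7, Ednra above Nos1 in 7, Nos1 above Edn2 in 6 and Edn2 above Nos2 in 4, so Edn2 and Nos2 had no order beyond their spread.

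The comparison of MUT with WT mice asks whether the transcripts of this system depend on the mutated residues of beta-catenin. None of the 9 genes passed the threshold of 0.05 on the adjusted p (limma over all genes, Benjamini-Hochberg), and neither did any other gene: the share called was 0% of 15013 genes with a mean of 1 TPM or more and 0% of 43528 genes with no filter. Differences are on the log2(TPM + 1) scale, MUT minus WT, which understates the change of low genes.

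The WT mice had 104, 109, 103 and 100.03 TPM of Edn3, and the MUT mice had 104, 110, 98.8 and 97.2 TPM. Both groups covered nearly the same range. The log2 difference was -0.02 (SE 0.06, 95% interval -0.14 to 0.11, limma adjusted p = 0.997). The WT mice had 29.8, 27.0, 27.9 and 24.6 TPM of Ednrb, and the MUT mice had 29.96, 25.1, 30.1 and 25.01 TPM. The groups again overlapped, with a log2 difference of 0.02 (SE 0.09, 95% interval -0.19 to 0.22, limma adjusted p = 0.998). Of Ece1, WT mice had 40.2, 50.03, 43.2 and 38.6 TPM, and MUT mice had 35.2, 40.3, 53.8 and 48.0 TPM. Here MUT mice were both the lowest and the highest, and the log2 difference was 0.04 (SE 0.13, 95% interval -0.26 to 0.34, limma adjusted p = 0.998). Without the 11 libraries with high blood, proximal or thick limb markers, which left 4 WT and 9 MUT libraries in 4 mice each, the difference was -0.13 for Ece1, -0.14 for Edn3 and 0.17 for Ednrb. Their limma adjusted p was 0.893, 0.710 and 0.841. The unadjusted limma p of Edn3 in that fit was 0.0228, where 1002 of 15013 genes were under 0.05, against 691 with all libraries. With all libraries, unadjusted limma p under 0.05 were found for 4.6% of the filtered and 3.57% of the unfiltered genes, and for 0 of the 9.

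WT mice had 1.19, 1.14, 2.18 and 1.28 TPM of Edn1, and MUT mice had 3.77, 1.55, 1.29 and 1.18 TPM. A single mouse was high in each group, and the other mice of both groups lay between 1.14 and 1.55 TPM. The log2 difference was 0.25 (SE 0.21, 95% interval -0.23 to 0.72, limma adjusted p = 0.980). It was 0.06 without MUT mouse 1 and 0.32 without WT mouse 3. Leaving out only the highest tubule of these mice gave 0.09 for MUT mouse 1 and 0.39 for WT mouse 3. Single tubules made the high means: the highest WT tubule, at 5.06 TPM, came from WT mouse 3 and the highest MUT tubule, at 8.12 TPM, from MUT mouse 1. The median of the 12 tubules was 0.905 TPM for WT against 1.44 TPM for MUT, and 6 of 12 WT and 11 of 12 MUT tubules were at 1 TPM or more. Tubules of a mouse are not replicates, so these tubule values are a description and were not tested.

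**Figure D2:**
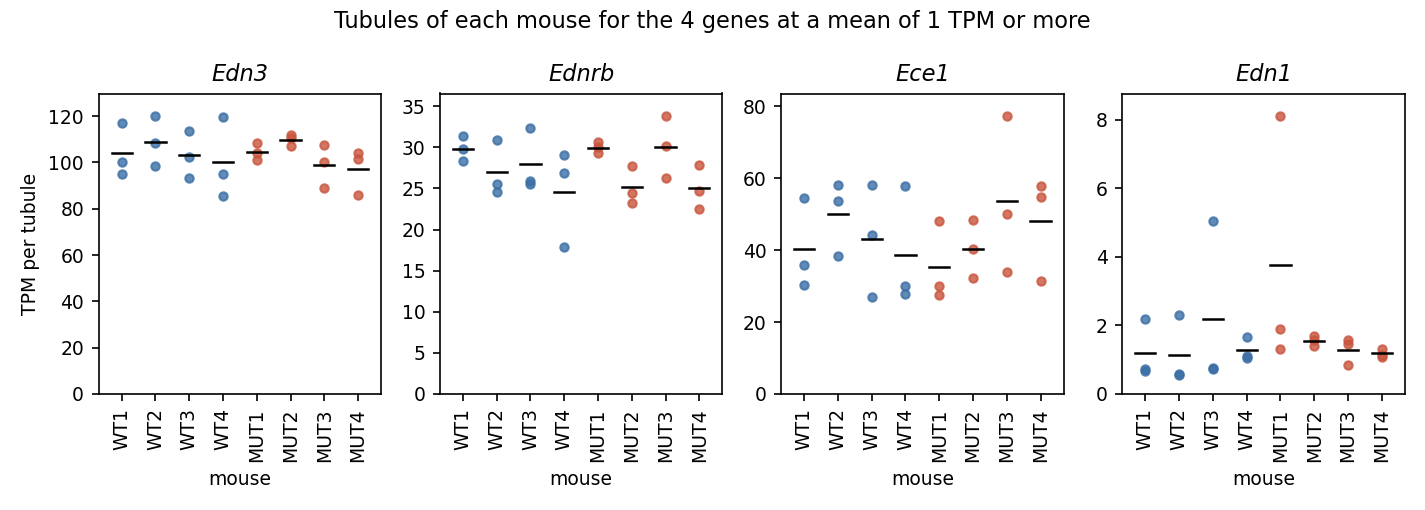
TPM of single tubules (points) and the mean of the 3 tubules (bars) for each of the 4 WT (blue) and 4 MUT (red) mice, for Edn3, Ednrb, Ece1 and Edn1. Edn3 tubules lie between 85.5 and 120 TPM in every mouse, Ece1 tubules of one mouse differ by 1.498 to 2.29 times, and Edn1 has single high tubules in WT mouse 3 and MUT mouse 1.

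The 5 members with a mean under 1 TPM were read from the fit with no filter. WT mice had 0.0367, 0.160, 0.120 and 0.163 TPM of Nos1, and MUT mice had 0.173, 0.253, 0.273 and 0.170 TPM. All 4 MUT mice were above all 4 WT mice, but the highest WT mouse nearly reached the lowest MUT mouse. The two-sided exact permutation p was 0.0286, the smallest that 70 arrangements of 8 mice allow, while the log2 difference was 0.11 (SE 0.06, 95% interval -0.02 to 0.25, limma unadjusted p = 0.0924, adjusted p = 0.953). It was 0.071 without tubule 1 of MUT mouse 2, and 0.17 without the 11 high-marker libraries (limma unadjusted p = 0.0167, adjusted p = 0.766). How many unfiltered genes had a like unadjusted p without these libraries was not counted, and that exclusion was chosen after seeing the data. Groups did not overlap in 2.12% of the 43528 unfiltered genes, with MUT higher in 1.52%, and in 3.02% of the filtered genes. Nos1 was the 1 member of 9 without overlap. Nos1 also went with library complexity: Pearson's r with the number of genes listed above 0 TPM was 0.70 over the 24 tubules and 0.64 after centring on mice. For Ednra and Edn2 that r was 0.57 and 0.42 before centring. The number averaged 28376 ± 2328 over the WT against 29767 ± 944 over the MUT mice (SD, n = 4 each). Some marker sums went with Nos1 to a like degree after centring, and less before it. Their centred r was 0.64 for principal cells, -0.63 for the distal convoluted and connecting tubule, -0.58 for fibroblasts and -0.52 for intercalated cells. The part of complexity or of any of these cells in the difference was not tested.

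WT mice had 1.14, 1.33, 0.483 and 0.673 TPM of Nos3, and MUT mice had 0.857, 1.12, 0.997 and 1.39 TPM. The groups overlapped, and the log2 difference was 0.16 (SE 0.18, limma adjusted p = 0.953). It was 0.040 without WT mouse 3, 0.096 without tubule 2 of MUT mouse 4, and 0.36 without the 11 high-marker libraries (limma adjusted p = 0.766). The endothelial markers, which moved with Nos3 among tubules, summed to 235 ± 70.3 TPM for WT against 264 ± 27.5 TPM for MUT; their part in the Nos3 difference was not tested. The WT mean of Ednra was 0.403 ± 0.247 TPM and the MUT mean 0.364 ± 0.0914 TPM, those of Edn2 were 0.128 ± 0.0849 and 0.0825 ± 0.0887 TPM, and those of Nos2 were 0.0700 ± 0.0504 and 0.0750 ± 0.0459 TPM (SD, n = 4 each). Their exact permutation p was 0.886, 0.543 and 0.943, and the mice of both groups overlapped for each.

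**Figure D3:**
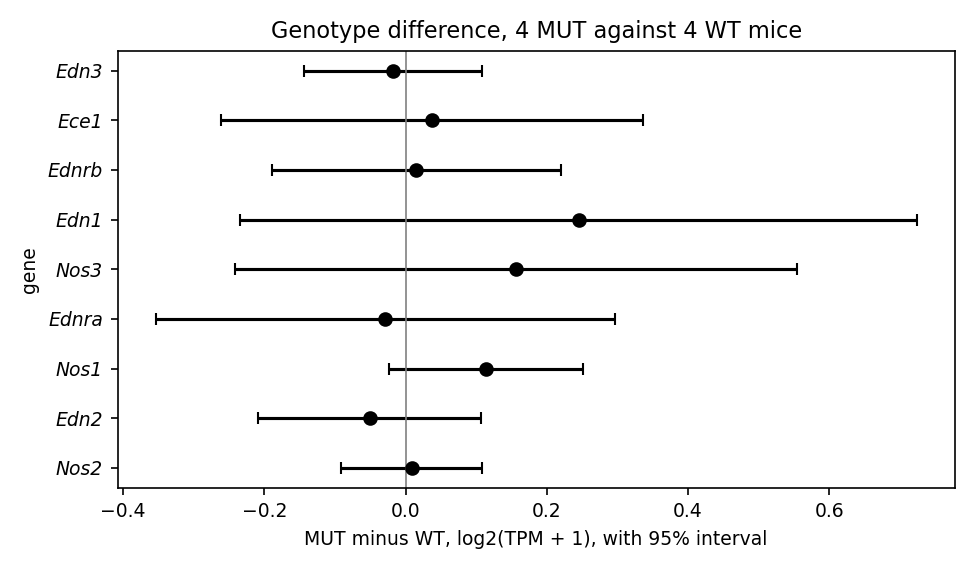
Difference between MUT and WT mice for each gene on the log2(TPM + 1) scale (points), with its 95% interval from limma (bars, 4 mice per group). Every interval includes 0, and that of Edn1, from -0.23 to 0.72, is the widest of the 9 on this scale, which compresses low genes. With 0.1 added in place of 1, the SE of Ednra was 0.46 against 0.30 for Edn1.

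Most genes around the receptors were measured at 1 TPM or more, and none of those tested passed the threshold. Of 26 listed genes of endothelin receptor signalling 23 were tested, with 9 higher and 14 lower in MUT mice and 0 past the threshold. Their median log2 difference was -0.02, where all 15013 tested genes had 0.01. Of all these tested genes 8149 were higher and 6864 lower in MUT mice, and no list was tested as a set. Prkcd, a diacylglycerol-activated protein kinase C, was at 251 ± 14.5 TPM and Rgs2, a regulator that shortens Gq signalling, at 183 ± 13.6 TPM (SD, n = 8 mice). Both stood above the receptors themselves. Gna11, which encodes an alpha subunit of the Gq family, was at 79.9 ± 4.11 TPM. The smallest unadjusted p of the list were those of Gnai3, an inhibitory G protein subunit, with a WT mean of 74.4 ± 2.84 TPM and a MUT mean of 82.0 ± 2.93 TPM (log2 difference 0.14, SE 0.05), and of Gna12, with means of 38.1 ± 4.70 and 30.7 ± 9.29 TPM (-0.35, SE 0.21). The limma adjusted p of both was 0.980.

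Of the 4 tested genes of endothelin processing and breakdown 1 was higher and 3 were lower in MUT mice, with 0 past the threshold and a median log2 difference of -0.08. The WT mean of Furin was 52.6 ± 1.60 TPM and the MUT mean 41.5 ± 12.7 TPM (log2 difference -0.40, SE 0.20), so the MUT mice were the more spread. Those of Mme were 97.2 ± 1.40 and 101 ± 1.92 TPM (0.06, SE 0.04). For both the limma adjusted p was 0.980.

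Transcription factors known to act on the endothelin 1 gene were all measured, and 3 of 12 were higher and 9 lower in MUT mice, with 0 past the threshold and a median log2 difference of -0.09. The AP-1 genes Fos and Jun, both immediate early genes, were at 1251 ± 574 and 375 ± 194 TPM (SD, n = 8 mice). Hif1a, the oxygen-regulated factor, had a WT mean of 178 ± 13.1 TPM and a MUT mean of 201 ± 19.0 TPM (log2 difference 0.18, SE 0.08), and the glucocorticoid receptor gene Nr3c1 had means of 16.3 ± 1.31 and 14.4 ± 1.35 TPM (-0.17, SE 0.09), both with a limma adjusted p of 0.980. Nr3c2, the mineralocorticoid receptor gene, was at 81.7 ± 8.58 TPM over all mice.

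Genes that supply the synthases were mostly well above 1 TPM, while most of those that turn nitric oxide into cyclic GMP signals were not. In the list of 17 genes for the synthases' cofactor and substrate 15 were tested, with 5 higher and 10 lower in MUT mice, 0 past the threshold and a median log2 difference of -0.02. Pts and Qdpr, which make and recycle the cofactor tetrahydrobiopterin, were at 330 ± 25.3 and 147 ± 10.2 TPM (SD, n = 8 mice), but Gch1, the rate-limiting enzyme of its synthesis, was at 2.05 ± 0.403 TPM. Spr, the last enzyme of the synthesis, and Ass1, which remakes the substrate arginine, had the smallest unadjusted p of the list, with log2 differences of -0.13 (SE 0.07) and -0.98 (SE 0.58) and a limma adjusted p of 0.980 for both. Ass1 is known as a proximal tubule gene in the kidney, and proximal markers summed to 665 ± 815 TPM for WT against 174 ± 193 TPM for MUT; their part in the Ass1 values was not tested.

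Of 14 synthase partners 13 were tested, with 8 higher and 5 lower in MUT mice, 0 past the threshold and a median log2 difference of 0.04. The chaperone gene Hsp90ab1 was at 1313 ± 137 TPM and the calmodulin gene Calm2 at 784 ± 36.0 TPM (SD, n = 8 mice), far above any synthase. Cav2, a caveolin gene, had a WT mean of 585 ± 52.1 TPM and a MUT mean of 742 ± 108 TPM (log2 difference 0.34, SE 0.11, limma adjusted p = 0.980). Cav1, the caveolin that binds the endothelial synthase, was at 549 ± 63.2 TPM.

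In the list of 12 genes from nitric oxide to cyclic GMP 9 had a mean under 1 TPM. Gucy1b1, the beta subunit that soluble guanylate cyclase requires, was at 0.157 ± 0.123 TPM and did not exceed 0.73 TPM in any tubule, while the alpha subunit gene Gucy1a1 was at 1.90 ± 0.489 TPM (SD, n = 8 mice). The protein kinase G genes Prkg1 and Prkg2 were at 0.695 ± 0.307 and 0.637 ± 0.263 TPM, and Pde5a, for the phosphodiesterase that degrades cyclic GMP, at 0.533 ± 0.130 TPM. The exceptions were Vasp, an actin regulator that protein kinase G phosphorylates, at 16.2 ± 2.47 TPM, and Adh5, the enzyme that breaks down S-nitrosoglutathione, at 231 ± 11.8 TPM. Of the 3 tested genes 2 were higher and 1 was lower in MUT mice, with 0 past the threshold and a median log2 difference of 0.02.

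**Figure D4:**
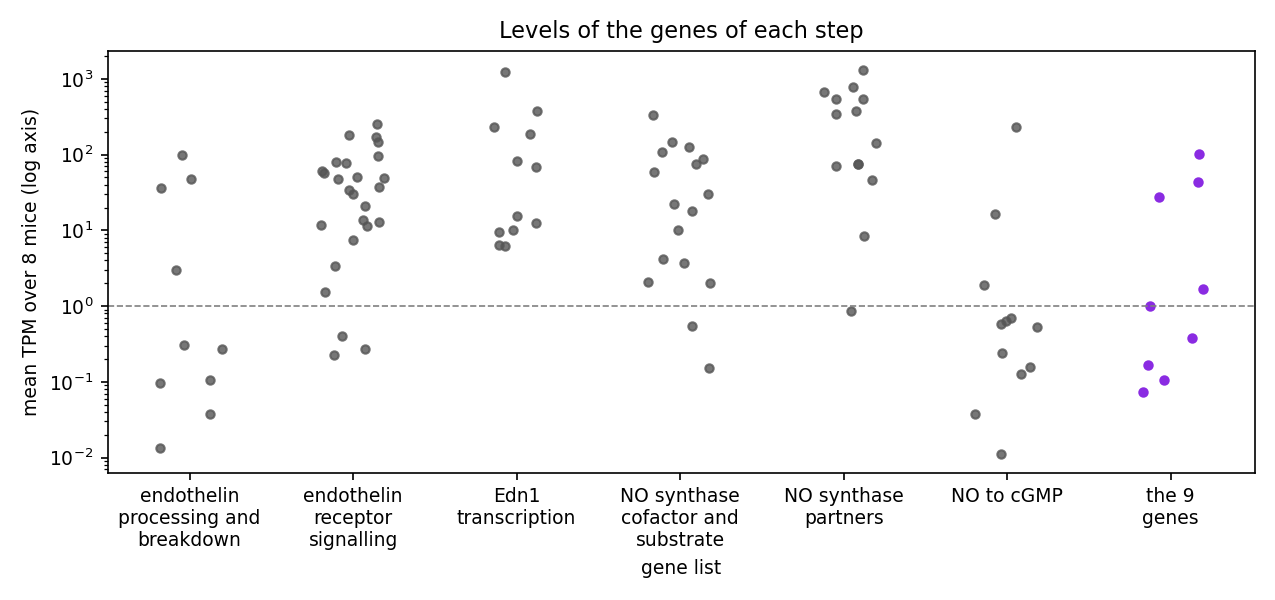
Mean TPM over the 8 mice (log axis) of each gene in the 6 lists around the system (grey points) and of the 9 genes themselves (purple points), with the dashed line at 1 TPM. Most genes of receptor signalling, Edn1 transcription, cofactor supply and synthase partners lie above the line, whereas 9 of the 12 genes from nitric oxide to cyclic GMP lie under it.

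Among the 4 members at 1 TPM or more, tubules of the same mouse differed more in Ece1 and Edn1 than in Edn3 and Ednrb on the log2(TPM + 1) scale. The SD of log2(TPM + 1) within mice was 0.14 for Edn3, 0.18 for Ednrb, 0.46 for Ece1 and 0.61 for Edn1, where the median of the 15013 tested genes was 0.19 and that of the 5887 genes between 20 and 200 TPM was 0.13. Of these 5887 genes 98.1% had a lower within-mouse SD than Ece1, against 62.1% for Edn3 and 80.9% for Ednrb. Edn1, at a mean of 1.70 TPM, was not compared with genes of its own level. In WT mouse 3 the 3 tubules had 27.0, 58.3 and 44.3 TPM of Ece1, and in MUT mouse 3 they had 50.2, 33.9 and 77.4 TPM. The highest tubule of a mouse exceeded its lowest by 1.498 to 2.29 times for Ece1, with a median over the 8 mice of 1.82, and by 1.04 to 1.40 times for Edn3. The Ece1 ratio was above those of Edn3 and Ednrb in 8 of 8 mice. The share of the variance that lay between mice of a genotype was estimated at 0% for Edn3, Ece1 and Edn1 and at 16.8% for Ednrb. Its median was 22.1% over the 15013 tested genes and 27.5% over the 5887 genes between 20 and 200 TPM. Estimates under 0 were set to 0, and with 4 mice per group a share of 0% does not show that mice did not differ. Of the 11 summed marker lists, that of the macula densa and thick limb had the highest Pearson's r with Ece1, at 0.25 over the 24 tubules and 0.40 after centring on mice. The principal cell sum followed after centring, with r of 0.13 and 0.35. For the endothelial sum r was 0.20 and 0.10, and for the number of genes listed above 0 TPM it was 0.07 and -0.15. The part of these cells in the Ece1 spread was not tested.

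The genes whose tubule pattern was most like each abundant member were taken over the 24 tubules, as a description in which values share library and mouse. They were picked for the highest r among all tested genes, so high values were selected and were not tested. For Ece1 they were Fiz1 (Pearson's r 0.74), Esrp2 (0.74), Nsmf (0.73), Gm2423 (0.71) and Gm47638 (0.70). Esrp2 encodes an epithelial splicing regulator. For Ednrb they included Stambp (0.70), Grap (0.66), Dennd5b (0.64) and Klhl14 (0.64), and for Edn3 they included Itpa (0.75), Psmc5 (0.70), Ptov1 (0.69) and Crim1 (0.66). After centring on mice, r was 0.86 for Grap with Ednrb and 0.75 for Itpa with Edn3. For Edn1 they were Gm37320 (0.70), Sgsh (0.70) and 3 rows with one and the same r of 0.69, which are Mir3968, Gm49286 and a row without a symbol. Within the system, Edn3 and Ednrb had r of -0.39 over the tubules and -0.59 after centring, and Nos3 and Ednrb had r of 0.42 and 0.74. Of all pairs of members these had the largest r in size after centring, so they too were selected and not tested. Before centring other pairs were as strong, with r of 0.51 for Edn2 with Ednra and -0.42 for Edn3 with Ednra and with Nos2.

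Because beta-catenin acts on genes through TCF/LEF factors, the promoter of the abundant ligand is shown with the matches to their motif. The sequence is the RefSeq promoter of Edn3 in build GRCm38.p6, chr2:174760369-174760668 on the + strand, from 250 bases before to 50 after the annotated start, 5′ to 3′. Capitals mark the match to the TCF/LEF motif, CTTTG followed by AA, AT, TA or TT, searched on both strands.
Edn3 promoter: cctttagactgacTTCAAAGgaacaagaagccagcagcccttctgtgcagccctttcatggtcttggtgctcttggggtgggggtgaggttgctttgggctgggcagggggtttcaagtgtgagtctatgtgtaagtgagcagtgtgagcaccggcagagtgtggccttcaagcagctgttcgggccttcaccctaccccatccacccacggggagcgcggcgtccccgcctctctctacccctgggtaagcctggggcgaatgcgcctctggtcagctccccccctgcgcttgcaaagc
One match lay near the upstream end of the window. Of the 9 genes 7 had a promoter in the RefSeq table, with 10 promoters in all, and a match was found in 2 of the 10, that of Edn3 and 1 of 4 promoters of Ece1. Among all 32851 promoters of 300 bases 16.9% held a match, so the letters are common, and a match is a description and not a binding site. As given above, neither gene differed between genotypes beyond the spread between mice.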

How the data were processed

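Single-tubule RNA-seq of 24 CCDs was deposited by the authors as 1 table of TPM per gene. STAR, RSEM 1.3.3 and GRCm39 stand in the submitters' processing notes, without role or order. The labels' protocols give a SMART-Seq V4 cDNA kit. No source used here gives the annotation release, strand setting or filters. Every library summed to the same total within rounding, so depth is unknown. The authors' p-value, mean and ratio columns were not used.

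TPM were transformed as log2(TPM + 1) and averaged over the 3 tubules of a mouse. Genes averaging 1 TPM or more entered the fit of limma 3.58.1 (R 4.3.3), 4 MUT against 4 WT mice (empirical Bayes, mean-variance trend, Benjamini-Hochberg, threshold 0.05). The fit was run on simulated mouse means, to check that its mean estimates lay near the planted differences. No share of missed differences is drawn from that run here. Members under 1 TPM were read from the fit with no filter, with a two-sided exact permutation test over mice. The named genes were all members, the 2 most abundant tested genes and the 2 with the smallest p of each list, and the 5 genes most like each member at 1 TPM or more by Pearson's r over tubules. Some genes that this rule names are not reported here. Some other genes were named after their values were seen, as were Ece1's spread and the marker-based exclusion of libraries. The members and lists were chosen with earlier results of these data known. Sequences were read with Python 3.11.15 and Biopython 1.88 from GENCODE M21 and RefSeq (GRCm38), whose coordinates were not joined to the TPM table. No source says how far the mice were independent, so p-values measure the spread between these mice.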

Additional observations from a re-analysis of the deposited data

Results flagged for a closer look

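Edn1 in WT mouse 3, at 2.18 TPM, lay far from the other WT mice, and Edn1 in MUT mouse 1, at 3.77 TPM, lay far from the other MUT mice. In both mice 1 of the 3 tubules carried the excess, at 5.06 TPM in WT mouse 3 and 8.12 TPM in MUT mouse 1. The 9 genes were looked at in both groups, and chance alone flags about 1 in 20 such groups.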

How the results depend on the processing

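No member passed the threshold under any of the alternatives run, whose smallest limma adjusted p over the members was 0.710. The number of genes called over the whole table was 0, but 1 with the mouse as a random effect over 24 libraries and 28 with the libraries taken as independent, none of them a member. It ran from 0 to 1 when a mouse or tubule was left out, with the 1 call made without MUT mouse 4. With the mouse number as a replicate block it was 0 (483 genes at an unadjusted p under 0.05, against 691 without the block), and no call of a member changed. The numbers did not pair the mice: deviations of same-numbered mice correlated at -0.04 to 0.02 over genes. Of the 385 values of members under alternatives, 44 changed sign, all for genes with a main difference of 0.04 or less in size. Edn3 was 0.017 with array weights and Nos2 was -0.038 after quantile normalization. Ece1 was -0.13 without the 11 libraries above 5 times the median library in blood, proximal or thick limb markers. That exclusion was chosen after seeing the data. When a mouse or tubule was left out, the log2 difference ran from -0.049 to 0.14 for Ece1, from -0.051 to 0.017 for Edn3, from -0.038 to 0.060 for Ednrb, from -0.13 to 0.074 for Ednra and from -0.013 to 0.038 for Nos2. Edn1, Edn2, Nos1 and Nos3 kept their sign in every alternative run, but not their size: over all alternatives Edn1 ran from 0.056 to 0.44, Edn2 from -0.20 to -0.0019, Nos1 from 0.027 to 0.48 and Nos3 from 0.040 to 0.37. The cause of the changes was not tested. The low genes depend on the pseudocount: Nos1 was 0.48 at 0.1 and 0.03 at 5, and Edn1 was 0.44 and 0.09. Without depth, a value listed at 0 cannot be told from a low level.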
